A study of Mus musculus with 4 samples.

Results

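Interferon beta and the ISG15 system are described here through 5 genes, Ifnb1, Stat2, Isg15, Usp18 and Herc6, taken by name from the gene column of the deposited site tables. Under these names stood 31 of 45668 called sites in the table of mouse 1 and 36 of 47747 in that of mouse 2. Together they made up 41 different nucleotides, of 55333 over both tables. All 5 genes had called sites in both animals, among 7827 genes that did. The tables came from bone marrow-derived macrophages (BMDM) of 2 wild-type mice, each culture exposed to LPS, a bacterial outer membrane component, for 3 h. Each mouse gave 1 library immunoprecipitated (IP) with an antibody against N6-methyladenosine (m6A) and 1 input library, prepared by m6A-eCLIP after poly(A) selection, 4 libraries in all. NTC, a term left unexplained by the labels, also stands in the names of the tables. Neither the age of the mice nor unexposed cells enter these data, so nothing here compares LPS with rest.

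Lipopolysaccharide acts through Toll-like receptor 4 and the adaptor TRIF (gene Ticam1), which lead to transcription of Ifnb1. Secreted interferon beta binds its receptor, whose Janus kinases phosphorylate STAT proteins. STAT2 works with IRF9 in the factor that switches on interferon-stimulated genes. Among the targets is Isg15, which encodes a ubiquitin-like protein that a dedicated enzyme cascade attaches to other proteins. In the mouse Herc6 encodes the main ligase of that cascade, and Usp18 encodes the protease that removes ISG15 and also blocks signalling at the receptor. m6A is a methyl mark on adenosines of messenger RNA that reader proteins recognise. It is often found near stop codons and in long internal exons. Antibodies against m6A are also known to bind m6Am, a related mark beside the cap of messenger RNA.

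Each called site is 1 base with the authors' score and the authors' fold, which sets the read starts of a mouse's IP library against those of its input library. The score's definition is not given in the sources used here, and no listed site had a score under 10. A site was counted as enriched at a fold of at least 8 (log2 fold 3), and as shared when the same base and strand was called in both mice. No read numbers are given, so the depth behind each fold is unknown and single sites carry no interval. With 1 IP library per mouse no difference between sites or mice was tested. Both mice's values stand in for an error, printed in the order mouse 1, mouse 2. Positions are in mm10, and distances are counted from gene starts and ends in RefSeq's table of GRCm38.p6, the same coordinates. In such bulk cultures fewer cells with a transcript and less of it per cell cannot be told apart, and neither can a missing mark and a missing transcript.

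Of 10 macrophage marker genes, 10 had called sites in both mice, Adgre1, Csf1r and Spi1 among them. A shared enriched site was carried by 9 of the 10, all but Itgam, beside 86.9% of all 7827 genes with called sites in both mice. Called sites were absent in both mice for 8 of 8 lymphocyte markers, for 5 of 6 dendritic cell markers and for 7 of 7 stromal, endothelial and erythroid markers. Of 8 neutrophil markers 5 had called sites in both mice, namely Ngp, Camp, Ltf, S100a8 and S100a9. All 5 carried a shared enriched site, beside the same 86.9%. No share of all genes with called sites in both mice was counted to set beside the numbers of called markers. The part of other cells in the results was not tested.

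The called base could be read in RefSeq's promoter windows (GRCm38.p6), which end 50 bases into each gene, for 4 of the 41 sites. The 2 stretches below show what surrounds the sites at the start of Isg15 and Herc6 that were called in both mice. They run 5′ to 3′ on the transcribed strand with the called bases in capitals.
Isg15 (chr4:156200777-156200806, minus strand, bases 13 onward of the gene): ctctgactctgAgagtcgatccagtctctg
Herc6 (chr6:57580992-57581021, plus strand, from base 1 of the gene): gcccatctgacAtaccAgagccgcgggtgg
The called base was A at the 4 member sites and at all 4960 (mouse 1) and 5169 (mouse 2) called sites that such windows hold. With the site caller not given, whether it could list a base other than A is unknown. Methylated adenosines inside messenger RNA usually sit in the letters GAC or AAC, with the middle A carrying the mark. None of the 3 sites printed above had GAC, AAC or GGAC at the called base on its own strand. Each stretch does hold GAC a few bases before its first capital, but letters away from the called base were not counted. The letters at the called base were GAG in Isg15 and CAT and CAG in Herc6. Over all called sites in these windows GAC stood there in 2.54% (mouse 1) and 2.82% (mouse 2), GGAC, a subset of these, in 1.67% and 1.90%, and AAC in 0.484% and 0.464%. CAG, chosen after the letters were seen, stood there in 31.9% and 31.3%. The windows hold only bases near gene starts, so the letters at the sites of Ifnb1 and Stat2 and inside the coding sequence of Isg15 were not read.

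Across the 5 genes, 25 of 31 called sites were enriched in mouse 1, or 80.6% (exact 95% interval 62.5% to 92.5%), beside 81.7% over all called sites. In mouse 2, 26 of 36 were enriched, or 72.2% (54.8% to 85.8%), beside 79.1%. The 2 mice shared 26 called sites. These made up 83.9% (66.3% to 94.5%) of the list in mouse 1, beside 83.4% over all called sites, and 72.2% (54.8% to 85.8%) in mouse 2, beside 79.8%. Of the shared sites 22 were enriched in both mice, or 84.6% (65.1% to 95.6%), beside 76.9% over all shared sites. At a fold of at least 16, 19 sites remained in mouse 1 and 18 in mouse 2, beside 47.4% and 46.3% of all called sites, and 16 of the 26 shared sites passed in both, beside 42.2%. The 4 shared sites not enriched in both were below the limit in both mice, so no shared site changed sides. At the limit of 8 these shares and the shares of shared sites lay near the background, and the intervals cover counting error only. The 22 sites were divided over Stat2 with 8, Ifnb1 with 5, Isg15 with 4, Herc6 with 3 and Usp18 with 2. The plot of the fold of every called site shows how unevenly the strong sites were spread.

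**Figure D1:**
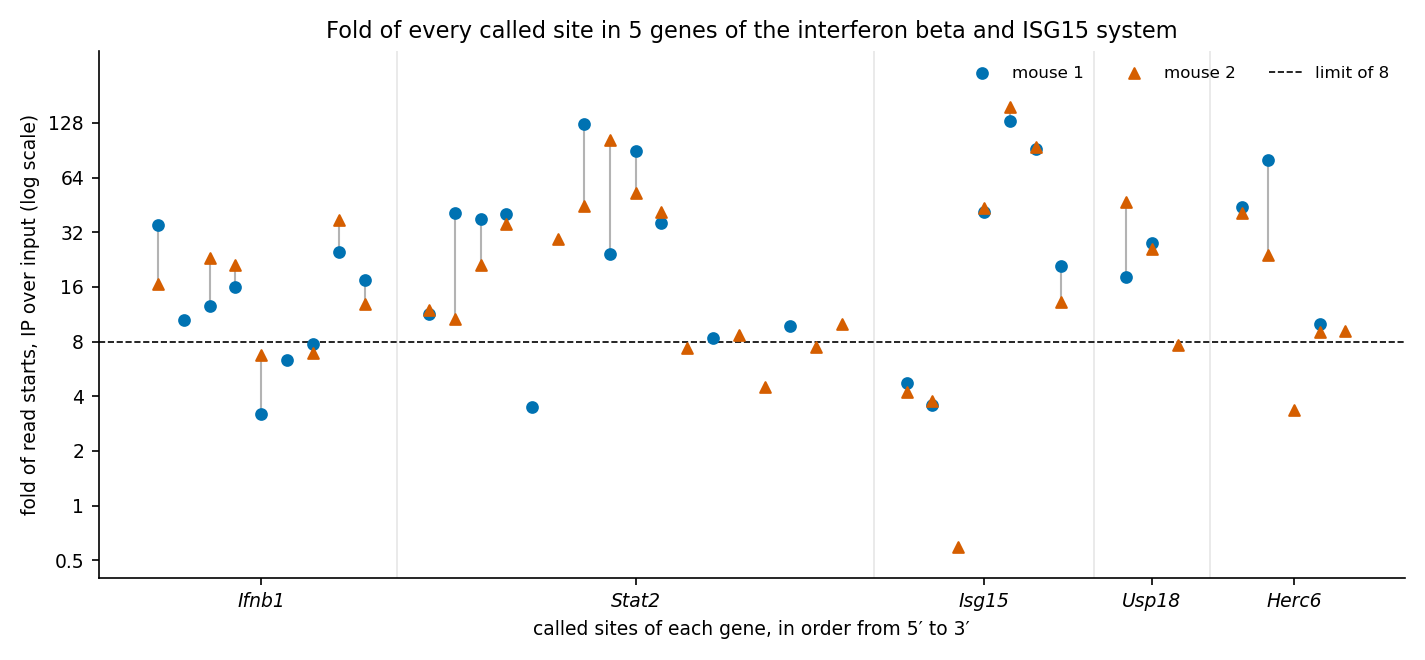
Fold of read starts (IP over input, log scale) of each called site of the 5 genes, in order from 5′ to 3′ within a gene, as points for mouse 1 and triangles for mouse 2 joined where both mice called the site; the dashed line is the limit of 8. The highest values are in the coding sequence of Isg15 and around the stop codon of Stat2, and the lowest is the 3' splice site of Isg15 at 0.592.

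Ifnb1, the interferon beta gene, is intronless, so distances along the gene are distances along its transcript. It spans 770 bases of chromosome 4 (88522025 to 88522794, minus strand) and had 9 called sites in mouse 1 and 7 in mouse 2, all 7 of them shared. Of the 7 shared sites 5 were enriched in both mice, beside 76.9% over all shared sites. Of the 6 sites annotated in coding sequence 3 were enriched in both mice, and of the 3 in the 3' UTR 2 were. The 6 include the 2 sites called in mouse 1 alone, which could not be enriched in both. The site with the highest mean log2 fold lay in the 3' UTR, 635 bases from the gene start (88522160), with folds of 25.1 in mouse 1 and 37.6 in mouse 2. A second 3' UTR site followed after 8 bases (88522152), with folds of 17.5 and 12.8. In both animals the first of this pair had the higher fold and the second the higher score (49.1 and 54.5, against 19.0 and 47.9).

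In the coding sequence of Ifnb1 the first site, 121 bases from the start (88522674), had folds of 35.1 and 16.7. Sites at 315 and 341 bases (88522480 and 88522454) had folds of 12.5 and 23.1, and of 16.05 and 21.2. All 3 were past the limit in both mice, the first higher in mouse 1 and the other two higher in mouse 2. Below the limit in both lay the site at 398 bases (3.18 and 6.74) and the first 3' UTR site at 593 bases (7.77 and 6.93). The sites at 187 and 470 bases were called in mouse 1 alone, with folds of 10.5 and 6.35. No site was called in the first 100 bases of Ifnb1. Its highest site was stronger than the strongest shared enriched site of 54.6% of the 6798 genes that had one.

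**Figure D2:**
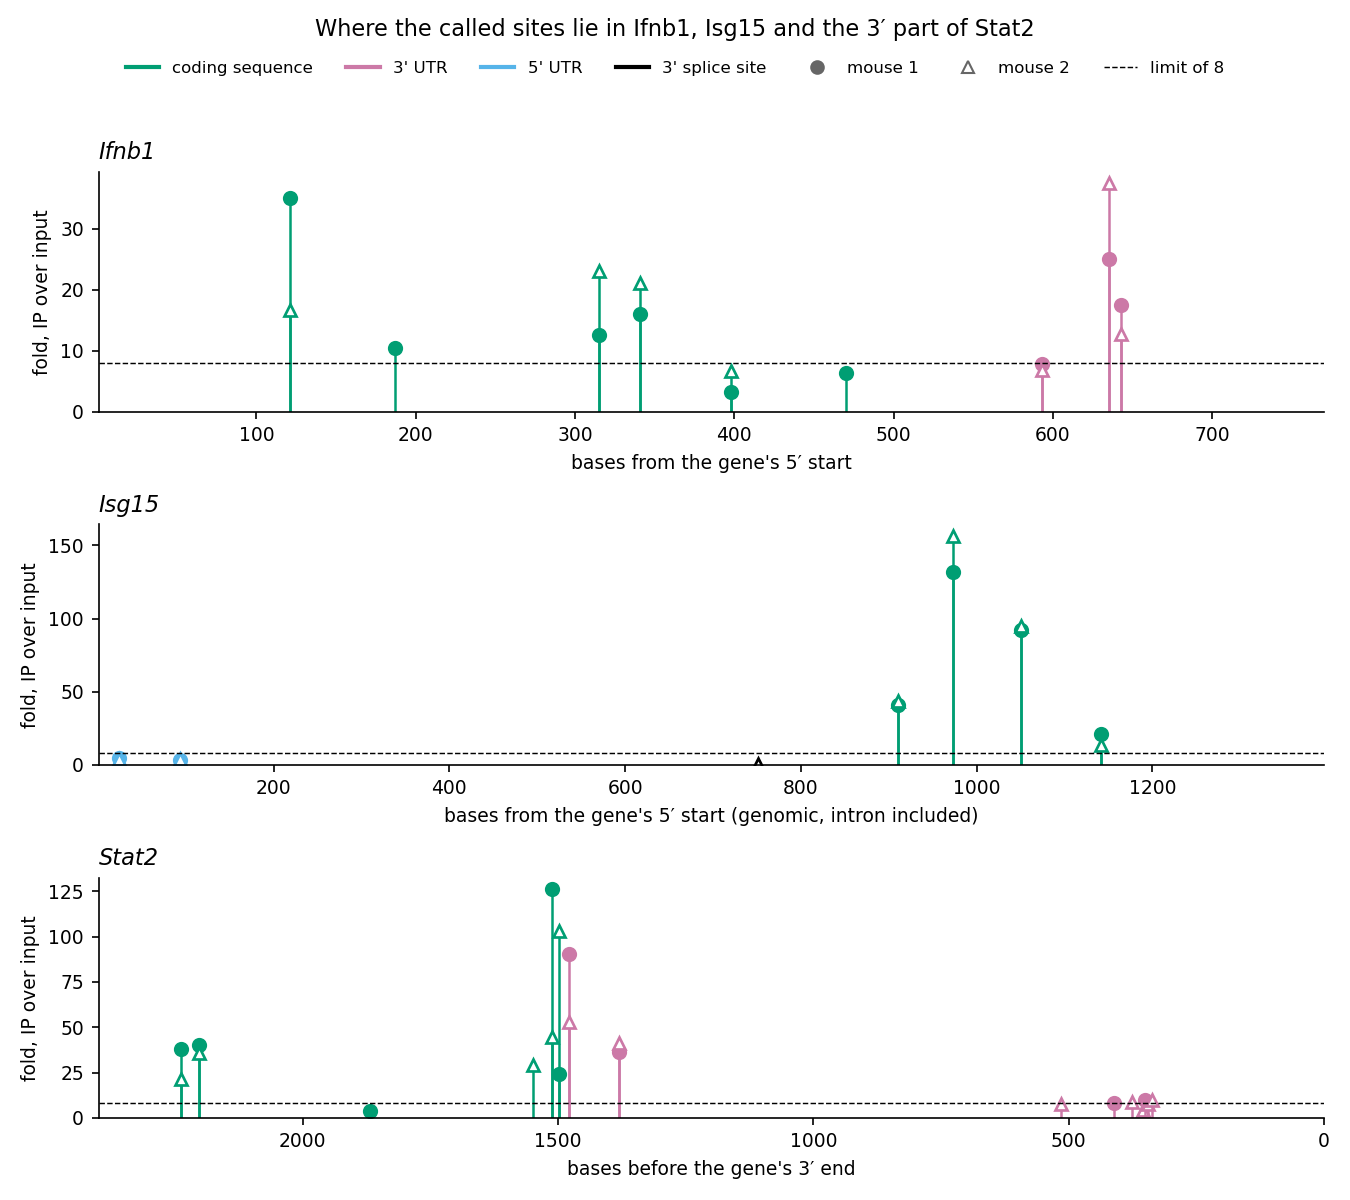
Fold (linear scale, IP over input) against position in Ifnb1 and Isg15, in bases from the gene start, and in the 3' part of Stat2, in bases before the gene end; filled points are mouse 1, open triangles mouse 2, colours the authors' annotation, and the dashed line the limit of 8. Sites in Ifnb1 run from 121 to 643 bases, the enriched sites of Isg15 from 910 to 1141 bases, and the 3 sites of Stat2 with the highest mean log2 fold from 1511 to 1478 bases before its end.

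Stat2 encodes the transcription factor subunit that the type I interferon receptor activates. The gene lies on the plus strand of chromosome 10 (128270498 to 128292853) and had 11 called sites in mouse 1 and 14 in mouse 2. Of these 8 were shared, and all 8 were enriched in both, beside 76.9% over all shared sites. Its 3 sites with the highest mean log2 fold, which also had its highest scores in both mice, lay within 33 bases around the end of the coding sequence. The coding site at 128291343 had folds of 126 in mouse 1 and 44.5 in mouse 2. The coding site 13 bases on, at 128291356, had folds of 24.3 and 103, so in mouse 1 it stood below 4 other sites of the gene outside this group, which had folds of 36.1 to 41.1. The order of these neighbours was thus turned between the animals, while their scores stayed close, 102 and 105 for the first and 101 and 105 for the second. With read numbers unknown, whether this turn exceeds counting error was not tested. The first 3' UTR site followed after 20 bases (128291376), with folds of 90.3 and 53.0, so the annotated stop codon falls between it and the last coding site. Scores of all 3 sites lay between the 94.8th and the 96.2nd percentile of their tables.

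Farther upstream in the coding sequence of Stat2 a pair of sites 34 bases apart had folds of 38.1 and 21.2 (128290616) and of 40.1 and 35.6 (128290650). In the 3' UTR the site at 128291473 had folds of 36.1 and 41.4. These 3 sites were well past the limit in both mice. The last 600 bases of the gene, a window chosen after the values were seen, held 7 called 3' UTR sites, 2 in mouse 1 (8.36 and 9.69) and 5 in mouse 2 (4.49 to 9.95). None of them was shared, while 83.4% and 79.8% of all called sites were. Among them the site of mouse 1 at 128292504 lay 4 bases from one of mouse 2 at 128292500. Stat2 thus held 9 of the 15 sites of the 5 genes that were called in 1 mouse alone. A coding site at 128291305 in mouse 2 alone had a fold of 29.4, the highest of these 15.

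At the start of Stat2 stood 2 sites annotated as noncoding exon, 62 and 75 bases into the gene. The first (128270559) had folds of 11.4 and 11.9, and the second (128270572) 41.1 and 10.6. A further site 2 bases before the first of them (128270557) was called in both mice, with folds of 11.4 and 62.6. The tables list it as intergenic with no gene name although it lies inside RefSeq's Stat2, so it is not among the 41.

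Isg15 is the ubiquitin-like modifier itself and carried the strongest site of the 5 genes. The gene lies on the minus strand of chromosome 4 (156199424 to 156200818) and had 6 called sites in mouse 1, all shared, and 7 in mouse 2. The coding site at 156199846 had folds of 132 in mouse 1 and 157 in mouse 2, the 98.9th and 99.3rd percentile of all folds. It was flanked by coding sites at 156199769 (92.4 and 94.8) and 156199909 (41.2 and 43.6). Last in the run, the coding site at 156199678 had folds of 20.9 and 13.3. The enriched sites of Isg15 thus formed a run of 4 coding sites over 231 bases, and they came in the same order of fold in both mice. The mice differed by at most 0.65 on the log2 scale at these 4 sites. The strongest of them exceeded the strongest shared enriched site of 97.1% of the 6798 genes that had one.

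The 2 sites in the 5' UTR of Isg15 had low folds. The base printed in capitals above, 24 bases into the gene (156200795), had folds of 4.72 and 4.22. The site at 94 bases (156200725) had folds of 3.59 and 3.76. A site called only in mouse 2 at the 3' splice site, 751 bases from the start (156200068), had a fold of 0.592, below that of the input by the authors' ratio. All 3 were below the limit, so the enriched sites of this gene were in coding sequence alone.

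Usp18, which encodes the protease for ISG15, had its shared sites at the start of the gene. It spans 121245906 to 121270917 on the plus strand of chromosome 6, and both shared sites lay in its 5' UTR. The first, on the first base of RefSeq's gene (121245906), had folds of 18.1 and 47.2. The second, 32 bases into the gene (121245937), had folds of 27.9 and 25.8. Both were enriched in both mice, beside 76.9% over all shared sites. Their scores were from 27.4 to 31.6, close to the medians of all called sites (31.4 and 31.9). The third site, in a proximal intron (121262961), was called in mouse 2 alone with a fold of 7.70. No site was called in the coding sequence or 3' UTR of Usp18 in either mouse.

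Herc6, the ligase gene, also had its strong sites at the start. On the plus strand of chromosome 6 (57580992 to 57665136), the sites 12 and 17 bases into the gene are the capitals in the stretch printed above. The first (57581003) had folds of 44.1 and 40.8, and the second (57581008) 80.2 and 23.9. Both were enriched in both mice, beside 76.9% over all shared sites, and the second differed more between the mice. The authors' tables annotate the first as a distal intron of a noncoding transcript in mouse 1 and as 5' UTR in mouse 2, and the second as such an intron in both, so overlapping transcripts are annotated here and the feature of these bases is uncertain. A coding site 114 bases into the gene (57581105) had folds of 10.03 and 9.05, close to the limit. In mouse 2 alone a site 50 bases into the gene (57581041) had a fold of 3.37 and a 3' UTR site (57662975) a fold of 9.15.

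Taking the start as the first 100 bases of a gene, Herc6 had 3 called sites there, Stat2, Isg15 and Usp18 2 each and Ifnb1 none. Of these 9 sites 8 were shared, beside 83.4% and 79.8% of all called sites, and 6 of the 8 were enriched in both mice, beside 76.9% of all shared sites, so both counts lay near the background. The 2 shared sites that were not enriched were those of Isg15. Of the 41 sites called in either mouse 41.5% were annotated in coding sequence, 31.7% in the 3' UTR and 9.76% in the 5' UTR. By mouse, coding sequence held 51.6% and 38.9% of the called sites, beside 39.0% and 38.9% over all called sites. The 3' UTR held 22.6% and 30.6%, beside 33.2% and 33.7%, and the 5' UTR 12.9% and 13.9%, beside 19.0% and 18.7%. Among sites enriched in both mice alone, coding sequence held 12 of the 22 sites enriched in both mice, or 54.5% (32.2% to 75.6%), beside 42.4% of all such sites. The 3' UTR held 4, or 18.2% (5.19% to 40.3%), beside 37.3%, and the 5' UTR held 2, or 9.09% (1.12% to 29.2%), beside 13.6%, with the annotation of mouse 1. The share of the 3' UTR thus moved by over 1.5 times with the choice of sites. Each of these intervals includes the share over all sites enriched in both, and sites of 1 transcript are not independent.

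Between the animals the 26 shared sites had a median absolute difference of 0.43 on the log2 scale, beside 0.56 over all shared sites of the tables. The fold was higher in mouse 1 at 14 of them and in mouse 2 at 12. The difference ranged from 0.036 to 2.08 on the log2 scale and was over 1, a doubling, at 7 sites. The 5 sites of mouse 1 alone had a median score of 16.9 and the 10 of mouse 2 alone one of 20.5, against 43.2 and 48.0 for the shared sites. The same was seen over all sites, where those of 1 mouse alone had median scores of 15.1 and 16.1 and the shared ones of 36.7 and 38.6. The plot of both mice's folds places the members among all shared sites.

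**Figure D3:**
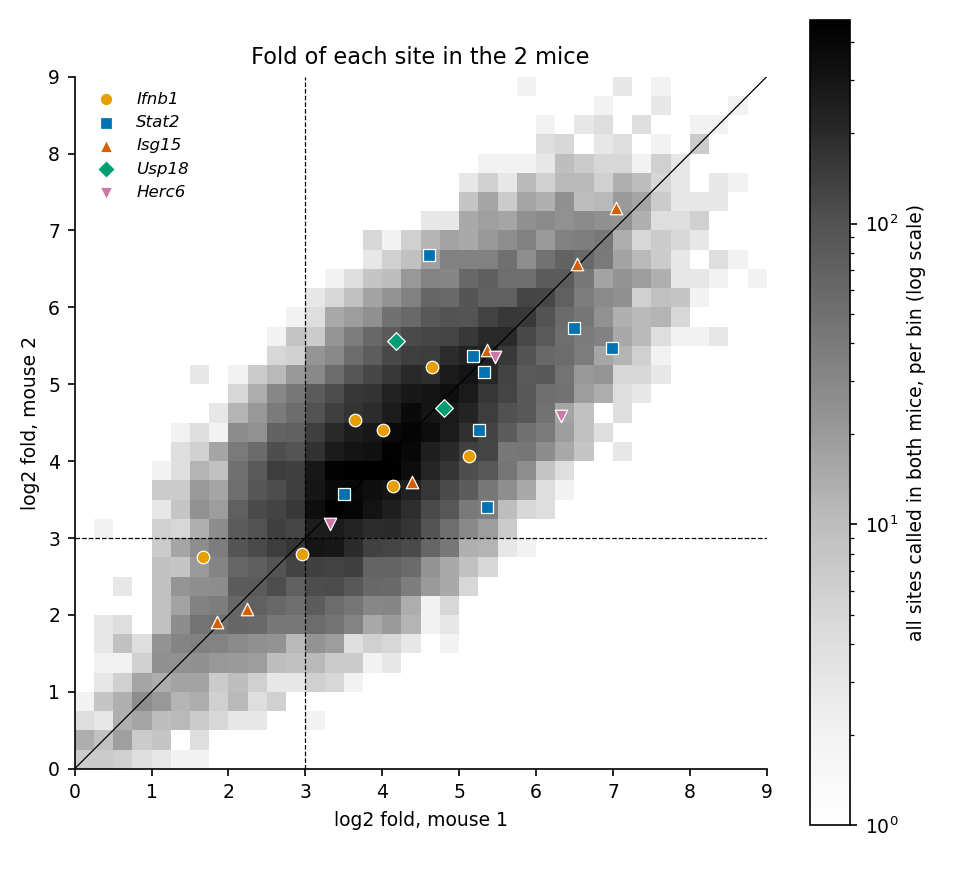
Log2 fold of each shared site in mouse 1 (x axis) against mouse 2 (y axis); coloured symbols are the 26 shared sites of the 5 genes, grey bins all 38082 shared sites, the solid line equal folds and the dashed lines the limit at log2 fold 3. No symbol lies on different sides of the limit in the 2 mice, and the 4 below it belong to Ifnb1 and Isg15.

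Set against other genes, the 5 differed in number of shared enriched sites. Stat2 with 8 had more than 87.2% of the 7827 genes with called sites in both mice, Ifnb1 more than 74.3%, Isg15 more than 66.2%, Herc6 more than 54.4% and Usp18 more than 37.5%. Transcript length was not taken into account. Over all called sites of the 5 genes the median fold was 20.9 in mouse 1, beside 15.04 over the whole table, and 14.99 in mouse 2, beside 14.4. Limited to the 22 sites enriched in both mice it was 35.6 in mouse 1 and 30.7 in mouse 2, beside 21.5 and 22.1 over all sites enriched in both. Gene by gene, medians over all called sites ran from 12.5 (Ifnb1) to 44.1 (Herc6) in mouse 1. In mouse 2 they ran from 9.15 (Herc6) to 25.8 (Usp18).

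The other genes of the pathway were grouped by role. What share of all mouse genes had called sites in both mice was not counted. The numbers of called genes per list therefore stand without a background share. Without the 5 genes, the lists held 69 genes, 45 had called sites in both mice and 40 of these carried a shared enriched site, or 88.9%, beside 86.9% over all 7827 genes. The median number of such sites was 3, beside 2 over all genes. Of 18 type I interferon genes Ifnb1 was the only one with a called site in either mouse, and 17 had none, the Ifna genes, Ifne and Ifnk among them. The Ifna genes are closely similar copies, and whether their reads could be placed uniquely was not tested.

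Of 6 genes of the receptor and Janus kinases, 5 had called sites in both mice. A shared enriched site was carried by 4, beside 86.9% over all genes with called sites in both mice. The receptor chains had the most, Ifnar2 with 17 (strongest 140.4 in mouse 1 and 79.4 in mouse 2) and Ifnar1 with 13 (130.4 and 92.4), both strongest in coding sequence. The strongest sites of the kinase genes Jak2 (137 and 73.2) and Jak1 (37.8 and 61.4) lay in 3' UTRs. Tyk2, the partner kinase of Jak1 at this receptor, had 2 called sites per mouse, neither of them enriched in both, and Jak3 had 1 in mouse 1 alone.

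Among the STATs and Irf9, 6 of 8 genes had called sites in both mice. A shared enriched site was carried by 5, beside 86.9% over all genes with called sites in both mice. Next to Stat2, Stat6 (79.2 and 173) and Irf9 (22.6 and 100.1) had their strongest sites in 3' UTRs. Stat5b had 1 called site per mouse, not enriched in both, and Stat3 and Stat4 had called sites in mouse 2 alone.

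On the list for attachment and removal of ISG15, 13 of 14 genes had called sites in both mice. A shared enriched site was carried by 12, beside 86.9% over all genes with called sites in both mice. These counts include Uba1, the activating enzyme gene of ubiquitin rather than of ISG15. Trim25, a ligase also known to attach ISG15, was highest (574 and 1362), followed by Isg15, Usp5 (120.3 and 32.0) and Herc6. The activating enzyme gene Uba7 (21.1 and 8.99) and the conjugating enzyme gene Ube2l6 (38.3 and 32.3), named after their values were seen, were strongest in the 5' UTR with 2 shared enriched sites each, as was Usp18. The same held for Ube2e1 (20.8 and 11.3) and Usp14 (42.6 and 28.6) of this list. Uba1, with 1 such site, was also strongest in the 5' UTR. Ube2e2 had 1 called site per mouse, not enriched in both, and Usp21 was called in mouse 1 alone. Of the HERC family 4 of 5 genes carried a shared enriched site, beside the same 86.9%. These were Herc2 with 7 sites (65.2 and 56.8), Herc6, Herc4 (16.05 and 23.1) and Herc1 (15.04 and 13.5). Herc3 had 1 called site in each mouse, not the same base.

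Of the genes listed for restraint of interferon receptor signalling, whether at the receptor or after it, 11 of 13 had called sites in both mice. All 11 carried a shared enriched site, beside 86.9% over all genes with called sites in both mice. Socs3, a feedback inhibitor of Janus kinases, had 18 (107 and 149.9), and Pias2 (82.2 and 117), Ptpn1 (57.2 and 121) and Pias1 (47.6 and 117) followed. Skp2 had 1 called site in mouse 1 alone. Of the genes that induce Ifnb1, 10 of 11 with called sites in both mice carried a shared enriched site, beside the same 86.9%. Jun (443 and 528) was highest, then Nfkb1 (53.5 and 226), Ikbke (148 and 69.9) and Rela (78.2 and 37.1), while Ticam2, an adaptor of Toll-like receptor 4, had 2 called sites in mouse 1 and 6 in mouse 2 and none enriched in both.

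**Figure D4:**
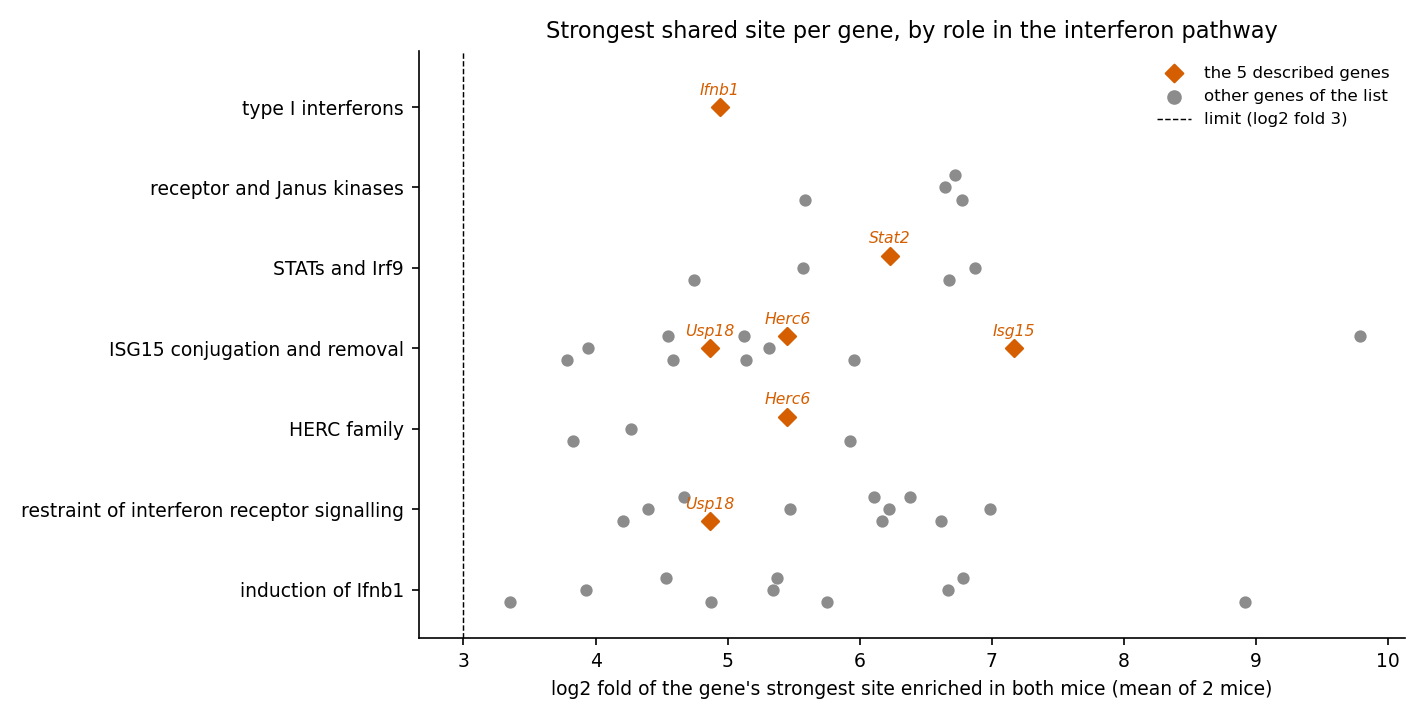
Log2 fold (mean of 2 mice) of the strongest shared enriched site of each gene, by role in the pathway; diamonds are the 5 described genes, grey points other genes of a list, and the dashed line the limit of log2 fold 3, with genes lacking such a site left out. Isg15 at 7.17 is second to Trim25 at 9.79 in its list, and Ifnb1 at 4.94 stands alone among type I interferons.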

How the data were processed

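For each mouse the authors deposited a separate list of called sites. Its score and its fold, a ratio of IP to input read starts per the file headers, are the authors' values. Trimming with cutadapt 2.7, alignment with STAR 2.6.0c and UMI-tools 0.5.1 are named in the submitters' processing notes, with the builds mm10 and hg38. The site caller is not given in the sources used here. Divided by a constant of each table (1.003 and 0.963), 62.1% and 62.0% of all deposited folds were whole numbers within 1e-06, as were 13 of 31 (41.9%) and 13 of 36 (36.1%) of the sites described, so many folds move in coarse steps. At the neighbouring coding sites of Stat2 the higher folds became whole numbers, 126 at 128291343 (mouse 1) and 107 at 128291356 (mouse 2). The lower folds there became 46.25 (mouse 2) and 24.25 (mouse 1).

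The genes and lists were chosen with earlier results of these data known, so no test was made over them. From each list the text names the 4 genes whose best shared enriched site had the highest log2 fold averaged over the mice, and those with called sites but none enriched in both mice. A gene that this rule picks is not reported here. Sites joined to several gene names or none were left out of counts per gene. Shares have exact (Clopper-Pearson) 95% intervals. Finding of shared sites was tested on simulated data. Alternatives covered the fold limit, the score, the sharing rule, the merging of close sites and each mouse left out. Python 3.11.15, pandas 2.3.3, NumPy 2.4.6, SciPy 1.17.1 and Matplotlib 3.10.9 were used.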

Additional observations from a re-analysis of the deposited data

How the results depend on the processing

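The count of 22 sites enriched in both mice went to 16 at log2 fold 4, 24 at log2 fold 2, 20 with a score of at least 20 and 20 with sites within 5 bases merged, and stayed at 22 with the limit set before the tables' constants or with sharing within 5 bases. With 1 mouse alone it was 25 or 26. Counting the unnamed site inside Stat2, an alternative chosen after seeing the data, gave 23. At log2 fold 4 the enriched sites of mouse 2 fell from 11 to 7 in Stat2 and from 4 to 2 in Herc6. By score, the strongest site of Ifnb1 was the one at 88522152, with a mean log2 fold of 3.91 in place of 4.94. No paired analysis was possible because the deposited fold already sets IP against input within each mouse and no values per library are given. Depth is unknown, so folds of single sites carry no error.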
